A study of Brassica napus and Camelina sativa and Thlaspi arvense with 24 samples.

Results

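The genes described here are the expressed orthologs of the *Arabidopsis thaliana* cytochrome P450 gene CYP78A8 (AT1G01190) in 3 oilseed crops of the Brassicaceae. They are 7 gene IDs of the 238537 listed in the tables of the 3 species. *B. napus* has 3 of them, BnaA10g000760.3DH, BnaC05g000710.3DH and BnaA09g068840.3DH, called here the A10, C05 and A09 copies after the chromosome in the ID. *C. sativa* has Csa03g002050, Csa14g001980 and Csa17g001660, called the Csa03, Csa14 and Csa17 copies, and pennycress (*Thlaspi arvense*) has CAH2039210. The IDs were selected on measured values: their TPM are above 0 in DH12075, DH55 or pennycress, and a copy at 0 throughout those libraries is therefore not among them. Their identity rests on the table of expression summed per *A. thaliana* gene that the study gives. The N99 libraries took no part in that choice.

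RNA was sequenced from first true leaves and from cotyledons of young seedlings of 4 lines, with 3 biological replicates of each tissue and 24 libraries in all. The lines were *B. napus* N99 and DH12075, *C. sativa* DH55 and 1 field-collected line of pennycress, all grown without a treatment in 1 growth chamber regime for up to 2 weeks after germination. Values are relative transcript abundances (TPM), in which each transcript's reads are divided by its length and each library sums to 1000000, so levels of copies and of libraries can be set side by side but the number of reads is unknown. Reads of N99 were assigned to the transcripts of DH12075, and an N99 transcript of another sequence can therefore be listed too low, whose part in the results was not tested. The tissues are whole organs, so fewer cells of a type and less RNA per cell cannot be told apart.

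CYP78A genes encode a plant-specific family of cytochrome P450 monooxygenases, enzymes that insert oxygen into small molecules. The best known member in *A. thaliana*, CYP78A5 (KLUH), is active at the base of young organs and promotes organ growth, and relatives of it influence seed size. CYP78A8 belongs to the same family and has been studied less. A cotyledon is an embryonic leaf that expands after germination, while the first true leaf forms at the shoot apex of the seedling.

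The 7 IDs were fitted to the study's table of summed expression. Their identity already rests on that table, so the fit is no independent evidence of orthology. The fit used 1 factor per library, taken from other genes, and 1 free weight per copy. All weights were positive, and their values are not given here. The 3 copies of DH12075 gave the 6 values of AT1G01190 with a largest misfit of 6.6e-09% of the highest value. For the 3 copies of DH55 it was 1.3e-08%. When any 1 of the 3 copies was left out, the misfit was at least 1.99% in DH12075 and at least 2.64% in DH55. CAH2039210 gave the 4 pennycress values above 0 with a misfit of 1.7e-08%. A weighted sum of these IDs thus gave the values of AT1G01190 in DH12075, in DH55 and, where above 0, in pennycress. The tissue labels were not checked against marker genes.

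Among the 24 libraries, 1 stood apart. In cotyledon replicate 2 of N99 37.1% of the TPM came from its 10 top genes, against 7.58% to 13.5% in the other 23 libraries, which lowers every other value of that library. Rescaled without the 10 top genes of each library, its CYP78A8 copies still summed to only 40.8 TPM. Cotyledon replicates 1 and 3 of N99 then had 60.7 and 81.1 TPM. Differences that rest on N99 cotyledons are therefore given with and without cotyledon replicate 2. Replicates of a line and tissue had Pearson correlations of log2(TPM + 1) between 0.944 and 0.993.

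Summed over copies, CYP78A8 averaged between 8.45 and 51.7 TPM in the groups of *B. napus* and *C. sativa* and was close to 0 in pennycress. In N99 the sum was 25.7 ± 7.51 TPM in leaves and 51.7 ± 24.6 TPM in cotyledons (SD, n = 3 each, as for every mean of a line and tissue below). In DH12075 it was 8.45 ± 4.53 TPM in leaves and 21.2 ± 6.43 TPM in cotyledons. In DH55 the sum was 38.9 ± 1.76 TPM in leaves and 34.7 ± 15.0 TPM in cotyledons. Both *B. napus* lines thus had the lower mean in leaves. The libraries of the tissues overlapped in N99, where cotyledon replicate 2 had 25.7 TPM against a highest leaf value of 31.7 TPM, and in DH55. In DH12075 they did not overlap, but leaf replicate 3 with 13.7 TPM was next to cotyledon replicate 3 with 14.1 TPM. From low to high, the order of the 8 means was pennycress leaf, pennycress cotyledon, DH12075 leaf, DH12075 cotyledon, N99 leaf, DH55 cotyledon, DH55 leaf and N99 cotyledon. The first 3 groups did not overlap with the next group in this order, whereas each of the later neighbours overlapped in range. The levels of the species are given without a test, because the study lists AT1G01190 among the genes it selected for differing between the species in these libraries.

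In pennycress, CAH2039210 had 0, 0.0140 and 0 TPM in the leaf libraries, against 0.0192, 0.0435 and 0.0364 TPM in the cotyledon libraries. It was above 0 in 1 of 3 leaf libraries and in all 3 cotyledon libraries. Its mean over the 6 libraries was 0.0189 TPM, and 5.27% of the 19355 pennycress genes above 0 had a lower mean. At this level the tissues were not compared by limma, which was run on genes averaging 1 TPM or more. The exact two-sided permutation test of log2(TPM + 1) gave p = 0.1, the smallest that 3 against 3 libraries allow. The reads behind these values are unknown, so they are not read as a difference between tissues. The related CYP78A5 was measured in the same libraries through its ortholog CAH2037875 and had 1.39 ± 0.302 TPM in leaves and 1.39 ± 1.04 TPM in cotyledons, so a gene of the same family was detected in pennycress at a higher level than CYP78A8. In DH55 the order was the other way round. There the 1 paired CYP78A5 copy, Csa14g016710, had 0.0287 ± 0.0242 TPM in leaves and 0.103 ± 0.0728 TPM in cotyledons, below each of the CYP78A8 copies.

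**Figure D1:**
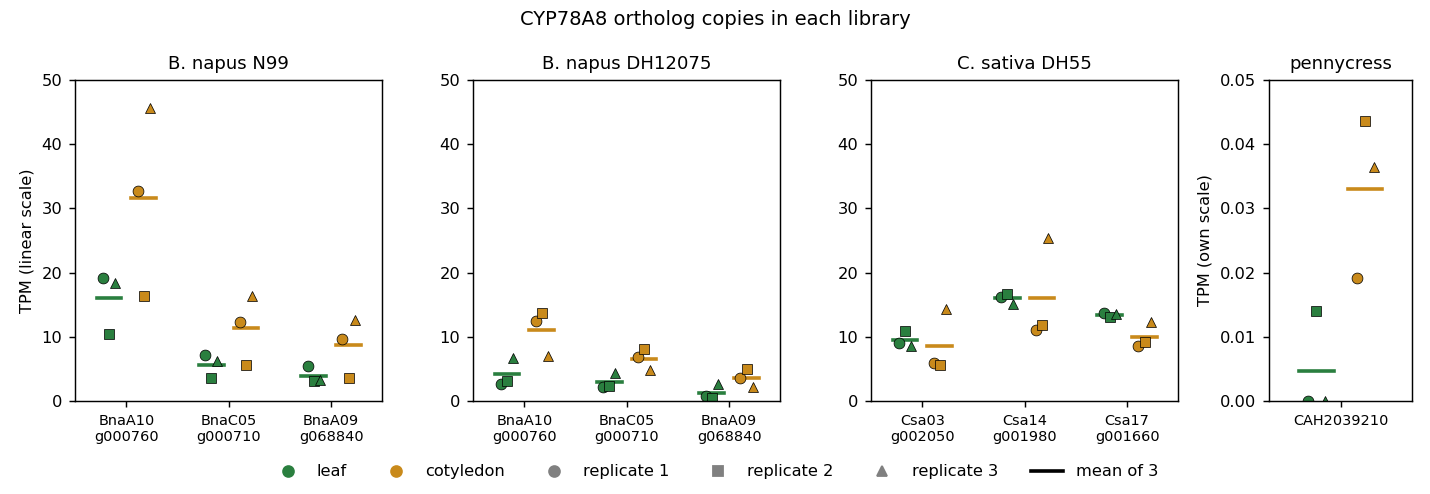
TPM of each CYP78A8 copy in each of the 24 libraries, with leaf points left of cotyledon points, a symbol per replicate and a bar at the mean of 3. The axis is linear and shared by N99, DH12075 and DH55, where the A10 copy reached 45.5 TPM in N99 cotyledons, while pennycress has an axis of its own, on which no library exceeds 0.0435 TPM.

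The A10 copy was the most expressed in *B. napus*. In N99 it had 19.1, 10.5 and 18.4 TPM in the leaf libraries, against 32.8, 16.4 and 45.5 TPM in the cotyledon libraries. In DH12075 it had 2.63, 3.20 and 6.71 TPM in leaves, against 12.4, 13.6 and 7.04 TPM in cotyledons. Leaf and cotyledon values did not overlap in DH12075, although leaf replicate 3 came close to cotyledon replicate 3, and they overlapped in N99 through the library that stood apart. Of the genes averaging 1 TPM or more, 87.4% in N99 and 63.7% in DH12075 had a lower mean than the A10 copy.

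The C05 copy, whose ID places it on the C subgenome, followed the same pattern at a lower level. It had 7.15, 3.61 and 6.30 TPM in N99 leaves, against 12.3, 5.64 and 16.4 TPM in N99 cotyledons. In DH12075 it had 2.19, 2.28 and 4.36 TPM in leaves, against 6.84, 8.07 and 4.82 TPM in cotyledons. As for the A10 copy, leaf replicate 3 of DH12075 was the highest of its leaf libraries and cotyledon replicate 3 the lowest of its cotyledon libraries.

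The A09 copy was the least expressed of the 3. Its leaf libraries had 5.44, 3.17 and 3.35 TPM in N99, against 9.73, 3.63 and 12.7 TPM in N99 cotyledons. In DH12075 leaves it had 0.820, 0.556 and 2.60 TPM, against 3.63, 4.94 and 2.26 TPM in DH12075 cotyledons. Here the tissues overlapped in both lines, in DH12075 because of leaf replicate 3 and cotyledon replicate 3.

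Whether the copies differed between leaves and cotyledons was tested with limma on log2(TPM + 1), with Benjamini-Hochberg adjustment over all genes of the line. In DH12075, 3 of 3 copies were lower in leaves at an adjusted p-value under 0.05, and of all 41199 genes tested 50.4% were called, 20.8% higher and 29.5% lower. With a background of this size the count by itself does not set the copies apart from other genes. The A10 copy fell by 1.25 on the log2 scale (standard error 0.33, limma adjusted p = 0.0179). The C05 copy fell by 0.96 (standard error 0.25, limma adjusted p = 0.0157) and the A09 copy by 1.05 (standard error 0.35, limma adjusted p = 0.041). With a pseudocount of 0.1 TPM in place of 1 TPM the falls were larger and their order changed, to -1.59 for the A09 copy, -1.44 for the A10 copy and -1.17 for the C05 copy, all still called. In that setting 20679 of the 41199 genes were called, 8554 higher and 12125 lower. In means of TPM, cotyledons had 2.64 times the leaf level of the A10 copy, 2.23 times that of the C05 copy and 2.73 times that of the A09 copy. All 3 calls rest on the full set of libraries. Leaving out leaf replicate 1 gave adjusted p-values of 0.0598 for the A10 copy, 0.0557 for the C05 copy and 0.119 for the A09 copy. Each call was also lost without cotyledon replicate 1 or without cotyledon replicate 2, and those of the A10 and A09 copies without leaf replicate 2. Over the 6 libraries left out in turn the log2 differences stayed between -1.58 and -0.81.

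In N99, 0 of 3 copies passed the threshold in the tissue comparison (limma), where 29.4% of 41254 genes were called, 17.2% higher and 12.2% lower. All 3 had an unadjusted limma p-value under 0.05, as had 16125 of the 41254 genes. The log2 differences, leaf minus cotyledon, were -0.87 for the A10 copy (limma adjusted p = 0.0629), -0.83 for the C05 copy (limma adjusted p = 0.0549) and -0.85 for the A09 copy (limma adjusted p = 0.0503). Without cotyledon replicate 2 they were -1.26, -1.23 and -1.31, and all 3 passed (limma adjusted p = 0.0301, 0.0267 and 0.0158). In that setting 10729 of 41699 genes were called, 4693 higher and 6036 lower. All 3 copies also passed without leaf replicate 1 (limma adjusted p = 0.0345, 0.0156 and 0.00631), where 11450 of 41425 genes were called, 6617 higher and 4833 lower. The A10 and C05 copies passed without leaf replicate 3 (limma adjusted p = 0.0453 and 0.0328), where 9074 of 41066 genes were called, 4967 higher and 4107 lower. Without cotyledon replicate 3 the differences were -0.56, -0.53 and -0.53 and none passed, with limma adjusted p-values of at least 0.253. When the 10 top genes of each library were taken out and TPM rescaled, the differences were -1, -0.96 and -0.97 and all 3 passed as well, the largest limma adjusted p being 0.044. After this rescaling 16190 of the 41254 genes were called, 7495 higher and 8695 lower. Whether the tissue difference itself differed between the lines was tested by an interaction term, which passed for 0 of 3 copies and for 10.6% of all genes, 7.69% higher and 2.95% lower. It was 0.38 for the A10 copy (95% confidence interval -0.78 to 1.54, limma adjusted p = 0.715), 0.13 for the C05 copy (-0.90 to 1.16, limma adjusted p = 0.899) and 0.20 for the A09 copy (-0.99 to 1.39, limma adjusted p = 0.865). Without cotyledon replicate 2 of N99 the interaction was -0.0164 for A10, -0.27 for C05 and -0.26 for A09. A call in DH12075 and none in N99 is therefore not a shown difference between the lines.

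In *C. sativa*, the Csa14 copy was the most expressed, with 16.2, 16.6 and 15.1 TPM in leaves, against 11, 11.9 and 25.4 TPM in cotyledons. The Csa03 copy had 9.02, 10.9 and 8.58 TPM in leaves, against 5.92, 5.61 and 14.4 TPM in cotyledons. For both copies the 3 leaf libraries lay between 2 lower cotyledon libraries and cotyledon replicate 3, which was the highest of all. The Csa17 copy had 13.7, 13.1 and 13.5 TPM in leaves, against 8.51, 9.24 and 12.2 TPM in cotyledons, and here the tissues did not overlap. Its highest cotyledon value was again that of replicate 3.

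None of the 3 copies of DH55 passed the threshold between tissues in limma. Of the 3, 1 copy, Csa17, had an unadjusted limma p-value under 0.05, as had 20280 of the 41797 genes. Of all 41797 genes tested in DH55, 37.4% were called, 7.97% higher and 29.5% lower in leaves, and the median of all genes was -0.19 on the log2 scale. The difference was 0.41 for the Csa17 copy (95% confidence interval 0.08 to 0.74, limma adjusted p = 0.0567), 0.23 for the Csa03 copy (-0.54 to 1.01, limma adjusted p = 0.596) and 0.09 for the Csa14 copy (-0.61 to 0.79, limma adjusted p = 0.837). These values depend on single cotyledon libraries. Without cotyledon replicate 3, leaves were higher by 0.63 for the Csa03 copy, 0.45 for the Csa14 copy and 0.55 for the Csa17 copy, and all 3 passed (limma adjusted p = 0.0236, 0.03 and 0.0165). In that setting 10828 of 41633 genes were called, 2243 higher and 8585 lower. Without cotyledon replicate 1 the differences were 0.0537 for Csa03, -0.12 for Csa14 and 0.31 for Csa17, and without cotyledon replicate 2 they were 0.0212, -0.0716 and 0.36, and none passed. Quantile normalization, which removes the shift of the median, gave 0.63 for the Csa17 copy (limma adjusted p = 0.0206). The Csa03 copy had 0.46 and the Csa14 copy 0.29 in that setting, and neither passed (limma adjusted p = 0.341 and 0.502). There 11451 of the 41797 genes were called, 5800 higher and 5651 lower.

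**Figure D2:**
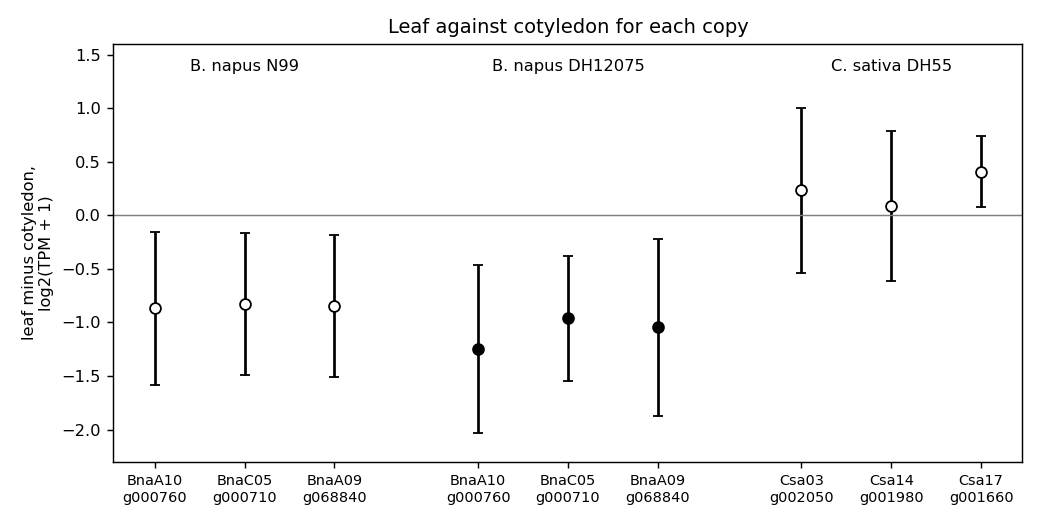
Leaf minus cotyledon on log2(TPM + 1) for each copy of N99, DH12075 and DH55, with 95% confidence intervals from limma; filled circles passed an adjusted p-value of 0.05. The 6 differences of *B. napus* lie between -1.25 and -0.83, and the 3 of *C. sativa* between 0.09 and 0.41.

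Summed over copies, leaf minus cotyledon was -0.90 in N99, -1.29 in DH12075 and 0.24 in DH55 on the log2(TPM + 1) scale. The exact two-sided permutation test gave p = 0.3, 0.1 and 0.4, where 0.1 is the smallest p that 3 against 3 libraries allow, so that none of them could pass 0.05. With each library left out in turn the difference ran between -1.33 (without cotyledon replicate 2) and -0.58 (without cotyledon replicate 3) in N99 and between -1.66 and -1.08 in DH12075. In DH55 it ran between 0.0588 (without cotyledon replicate 1) and 0.56 (without cotyledon replicate 3), and was 0.0917 without cotyledon replicate 2.

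The 2 lines of *B. napus* were then compared within each tissue, in 1 limma fit over their 12 libraries. In leaves, the A10 copy had 16.0 ± 4.79 TPM in N99 and 4.18 ± 2.21 TPM in DH12075, 3.83 times as much, and the lowest N99 leaf library lay above the highest of DH12075. The difference was 1.75 on the log2 scale (standard error 0.38, limma adjusted p = 0.00194). In cotyledons it had 31.6 ± 14.6 TPM in N99 and 11 ± 3.50 TPM in DH12075, again without overlap, a difference of 1.37 (standard error 0.38, limma adjusted p = 0.00896). Without the N99 library that stood apart the cotyledon difference was 1.77. This copy was past the threshold in both tissues with each of the 12 libraries left out in turn, with adjusted p-values of at most 0.0476.

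The other copies had smaller differences on the log2(TPM + 1) scale, which were not tested against those of the A10 copy. With a pseudocount of 0.1 TPM the leaf difference was 1.98 for the A10 copy, 1.75 for the A09 copy and 0.94 for the C05 copy. In cotyledons it was then 1.44, 1.13 and 0.69. The A09 copy was higher in N99 leaves, with 3.98 ± 1.26 TPM against 1.32 ± 1.11 TPM in DH12075 leaves (log2 difference 1.17, standard error 0.39, limma adjusted p = 0.0259), and these groups did not overlap. The call was lost without leaf replicate 1 or 2 of DH12075 or leaf replicate 1 of N99, with differences of 0.93 to 1.54 over all libraries left out. In cotyledons it had 8.68 ± 4.61 TPM in N99 and 3.61 ± 1.34 TPM in DH12075, with overlap (log2 difference 0.97, limma adjusted p = 0.0552). The C05 copy did not pass in either tissue. It had 5.69 ± 1.85 TPM in N99 leaves and 2.94 ± 1.23 TPM in DH12075 leaves (log2 difference 0.76, 95% confidence interval 0.03 to 1.49, limma adjusted p = 0.0838). In cotyledons it had 11.5 ± 5.44 TPM in N99 and 6.58 ± 1.64 TPM in DH12075 (log2 difference 0.63, 95% confidence interval -0.10 to 1.36, limma adjusted p = 0.142). Without cotyledon replicate 2 of N99 the C05 copy passed in cotyledons, with a difference of 1.03 (limma adjusted p = 0.0169), and so did the A09 copy with 1.44 (limma adjusted p = 0.0075). In that setting 20891 of 42968 genes were called in cotyledons, 10623 higher and 10268 lower. Without cotyledon replicate 3 of N99 the differences of C05 and A09 were 0.34 and 0.66. The A09 copy also passed in cotyledons without cotyledon replicate 2 or leaf replicate 3 of DH12075, and the C05 copy in leaves without leaf replicate 3 of DH12075, leaf replicate 2 of N99 or cotyledon replicate 2 of N99. In the former settings 17553 of 42805 and 20819 of 42871 genes were called in cotyledons, 6850 and 8477 of them higher. In the latter, 18033 of 42871, 16909 of 42723 and 21282 of 42968 genes were called in leaves, 8853, 8392 and 10793 of them higher. Of the 3 copies, 2 were thus called higher in N99 leaves, where 44.3% of all 42767 genes were called, 22.6% higher and 21.8% lower, and 1 in N99 cotyledons, where 47.9% were called, 19.3% higher and 28.5% lower.

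The difference of the A10 copy was set beside that of its neighbours in the order of ID numbers, 10 on each side of the copy. Of the 20, 13 averaged 1 TPM or more. In leaves their median difference between N99 and DH12075 was -0.13, with 1 called higher and 3 called lower, and 1 of the 13 lay above the A10 copy. In cotyledons their median was 0.28, with 6 called higher and 5 called lower, and 2 lay above it. For the C05 copy, 14 neighbours were tested, with medians of 0.07 in leaves and 0.01 in cotyledons, and 4 lay above the copy in each tissue. Of these 14, 4 were called higher and 2 lower in leaves, and 4 higher and 3 lower in cotyledons. For the A09 copy, 13 were tested, with medians of 0.27 in leaves and 0.19 in cotyledons, and 2 lay above it in leaves and 3 in cotyledons. Of these 13, 5 were called higher and 2 lower in leaves, and 3 higher and 1 lower in cotyledons. Over all genes tested, 44.3% were called in leaves (22.6% higher, 21.8% lower) and 47.9% in cotyledons (19.3% higher, 28.5% lower). The neighbours therefore held both higher and lower genes around each copy. Over all genes tested the median was 0.02 in leaves and -0.11 in cotyledons, and without cotyledon replicate 2 of N99 the median in cotyledons was 0.02.

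**Figure D3:**
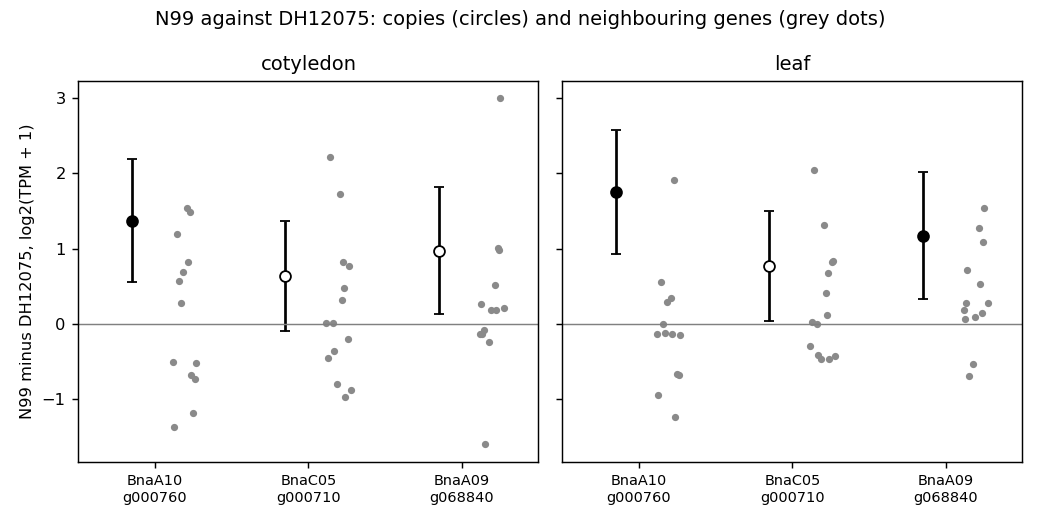
N99 minus DH12075 on log2(TPM + 1) in cotyledons and in leaves for the 3 *B. napus* copies (circles with 95% confidence intervals, filled where the limma adjusted p-value was under 0.05) and for the 13 or 14 tested genes nearest to each by ID number (grey dots, in ID order). The A10 copy stands at 1.37 in cotyledons and 1.75 in leaves, while its neighbours lie on both sides of 0.

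Copies of 1 line were also compared with each other within each library, since TPM are per length. In N99 the A10 copy was higher than the C05 copy in 6 of 6 libraries, by a ratio of 2.66 to 2.92. In DH12075 it was also higher in 6 of 6, by a ratio of 1.2 to 1.81. These ranges do not overlap, a difference between the lines that was noticed in the values and was not tested. The A10 copy exceeded the A09 copy in all 12 libraries, by a mean log2 difference of 1.77 in N99 and 1.28 in DH12075. The C05 copy exceeded the A09 copy in all 12, by 0.40 in N99 and 0.78 in DH12075. Each of these 6 comparisons gave p = 0.0312 in the exact two-sided sign-flip permutation test over 6 libraries, the smallest it allows, and an adjusted p of 0.0352 over 9 pairs of copies. In each line the result for A10 against A09 follows from those of the other pairs, so the 6 comparisons are not independent.

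As a share of the sum, the A10 copy held 61.9% ± 2.31 in N99 and 50.7% ± 2.72 in DH12075 (SD over 6 libraries of both tissues). The C05 copy held 22.1% ± 0.619 in N99 and 33.8% ± 3.79 in DH12075, and the A09 copy 16.0% ± 2.48 in N99 and 15.5% ± 3.53 in DH12075. The A10 and C05 shares of the lines did not overlap, whereas those of the A09 copy did. Copies of near-identical sequence share reads that the authors' quantification divides between them, and N99 reads were assigned to DH12075 transcripts. The part of either in these shares was not tested.

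In DH55 the Csa14 copy exceeded the Csa03 copy in 6 of 6 libraries, the difference Csa03 minus Csa14 being -0.77 on the log2 scale, and it exceeded the Csa17 copy in 6 of 6, by 0.39. Both gave an adjusted p of 0.0352 in the exact permutation test. The Csa03 copy was below the Csa17 copy in all but 1 library, cotyledon replicate 3, with a mean difference of -0.38 (exact permutation p = 0.0625, adjusted p = 0.0625). The Csa14 copy held 43.3% ± 3.1 of the sum, the Csa17 copy 32.5% ± 4.64 and the Csa03 copy 24.2% ± 2.53. The lowest share of the Csa17 copy, 23.5%, was that of cotyledon replicate 3, where the other copies had their highest values. The ratio of 2 copies did not differ between leaf and cotyledon at an adjusted p under 0.05 for any of the 9 pairs, but 3 against 3 libraries allow no exact permutation p below 0.1.

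**Figure D4:**
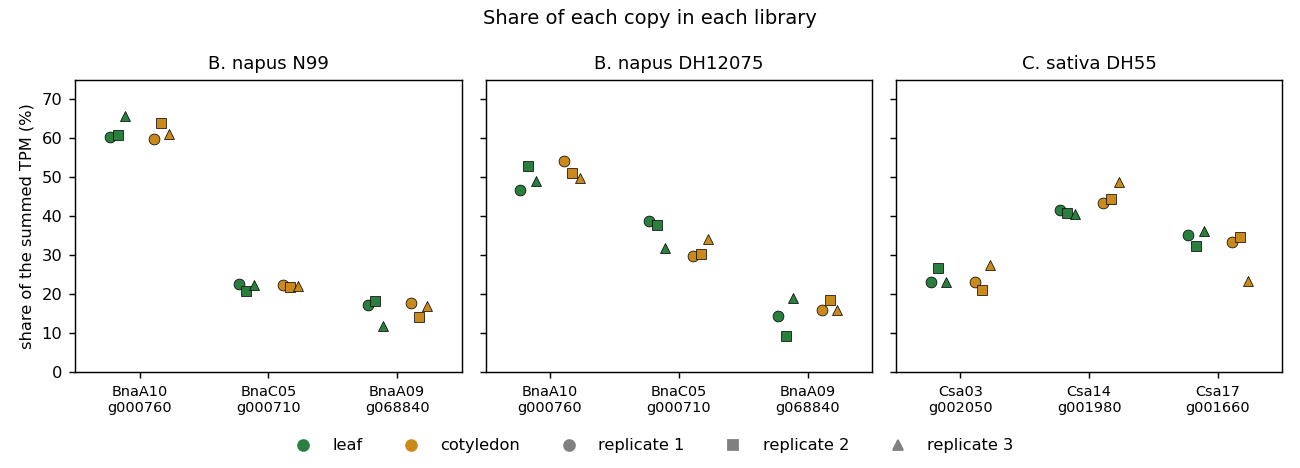
Share of each copy in the summed CYP78A8 level (percent of the summed TPM) in each library of N99, DH12075 and DH55, with leaf points left of cotyledon points and a symbol per replicate. The A10 copy held 59.8% to 65.6% in N99 and 46.7% to 54.2% in DH12075, and the C05 copy 20.9% to 22.6% in N99 and 29.9% to 38.8% in DH12075.

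The copies of *B. napus* moved together over the 12 libraries of both lines. Pearson's r of log2(TPM + 1) was 0.946 between the A10 and C05 copies, 0.965 between A10 and A09 and 0.968 between C05 and A09, where the points share libraries and fall into 2 lines and 2 tissues. In DH55, over 6 libraries, r was 0.967 between Csa03 and Csa14, 0.733 between Csa03 and Csa17 and 0.656 between Csa14 and Csa17. Among 12058 *B. napus* genes that averaged 10 TPM or more, the gene most like the A10 copy was BnaC09g036460.3DH (r = 0.977), that most like the C05 copy BnaA10g034380.3DH (r = 0.973) and that most like the A09 copy BnaC09g008320.3DH (r = 0.953). In DH55, where 6 libraries leave much room for chance among 12081 genes, they were Csa12g008880 for the Csa03 copy (r = 0.927), Csa05g032130 for the Csa14 copy (r = 0.966) and Csa13g052290 for the Csa17 copy (r = 0.978). The tables give no names for these genes.

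For context, 10 other P450 genes of *A. thaliana* chromosome 1 were looked up by the same numerical match, which gave IDs for 2 of them in *B. napus*, 5 in DH55 and 8 in pennycress. In DH55, 4 IDs were tested between tissues, of which 3 were called lower and 0 higher, at a median of -0.32 against -0.19 over all genes, of which 29.5% were called lower. Of the 3 called IDs, 2 are copies of 1 gene, CYP51G1. In pennycress 5 were tested, of which 1 was called lower and 0 higher, at a median of -0.19 against -0.10 over all genes, and 36.1% of all 14617 genes were called, 15.6% higher and 20.6% lower. In *B. napus* none of the 4 IDs, of CYP79F1 and CYP722A1, reached a mean of 1 TPM over both tissues of a line, and the highest mean of a tissue was that of BnaC08g033070.3DH (CYP722A1), with 1.21 TPM in N99 cotyledons and 1.25 TPM in DH12075 cotyledons. For 7 of the 10 genes, CYP78A5 among them, the match found no IDs in *B. napus*, where at most 2 copies were searched. The 2 paired genes therefore do not stand for the P450 genes of *B. napus*. CYP71B2 was the P450 gene of the list with the largest difference, with 8.68 ± 1.61 TPM in leaves and 49.3 ± 3.59 TPM in cotyledons of DH55 (Csa17g018390, log2 difference -2.39, limma adjusted p = 0.000526). In pennycress it had 3.20 ± 1.16 TPM in leaves and 31.1 ± 9.79 TPM in cotyledons (CAH2038008, log2 difference -2.92, limma adjusted p = 0.00152). CYP51G1, which encodes the sterol demethylase shared by all plants, had 27.5 ± 2.32 TPM in leaves and 31.5 ± 2.84 TPM in cotyledons of pennycress (CAH2038230, limma adjusted p = 0.223). In DH55, 2 of its 3 copies were lower in leaves, Csa14g014470 by -0.36 and Csa17g015760 by -0.28 (limma adjusted p = 0.0235 and 0.048). CYP79F1, an enzyme of aliphatic glucosinolate synthesis, ranged widely between replicates in pennycress, with 37.8 ± 36.8 TPM in leaves and 35.1 ± 22.9 TPM in cotyledons (CAH2037365, limma adjusted p = 0.856).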

How the data were processed

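Leaves and cotyledons of 4 lines were sequenced with 3 biological replicates each. The authors trimmed reads with Trimmomatic (version 0.32), quantified them with Salmon (version 1.10.0) against 1 transcriptome per species and deposited gene-level TPM from tximport in 1 table per line. Column names matched the 24 samples. TPM hold no read numbers, so depth and counting error are unknown. The libraries were made with a stranded mRNA kit by the methods and with a TruSeq kit by the labels.

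The members, lists and tests were chosen with earlier results of these data known. IDs of the other P450 genes were paired with *A. thaliana* genes where 1 set of IDs, with positive weights, gave the values of the study's summed table within a relative tolerance of 1e-07. At most 2 copies were searched in *B. napus* and 3 in *C. sativa*, larger sets only where no smaller set was found. Sets of 3 were searched only with 1 ID each from Csa03, Csa14 and Csa17. In DH55, 3 genes had more than 1 set and were left unpaired. Of the study's table a shortened version was used, only for this match.

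Genes averaging 1 TPM or more were tested on log2(TPM + 1) by limma 3.58.1 in R 4.3.3, the variance following a trend. The adjusted p-values are those of Benjamini and Hochberg, called under 0.05, and the script was tested on simulated data. Because of the pseudocount, changes at low levels are understated. Tissues were compared in each line over 6 libraries, and lines over 12 with 1 mean per line and tissue. Copies and sums were compared with exact permutation tests (numpy 2.4.6, pandas 2.3.3, scipy 1.17.1, Python 3.11.15), and plots were made with matplotlib 3.10.9. Named genes were the 7 members, the paired P450 genes, and for each copy the gene with the highest Pearson r among those averaging 10 TPM or more. Alternatives were a pseudocount of 0.1, filters at a mean above 0 and at 5 TPM, quantile normalization, rescaling without the 10 most abundant genes, the replicate number as a block, the libraries of 1 tissue alone, and each library left out. The reference gene table is of another *B. napus* genome (Da-Ae) and was not used, and no sequence is shown.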

Additional observations from a re-analysis of the deposited data

How the results depend on the processing

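Depth is unknown in TPM, so low levels carry an unstated counting error, and 3 libraries a group limit every call. Under settings that kept every library, 87 of 109 limma results for single copies kept their direction and side of the threshold, and 37 of 44 counts of calls stayed within 1.5 times. The differences between copies and of sums kept their sign, but the sums could not pass 0.05 under any setting. In DH12075 the A09 copy lost its tissue call with all genes above 0 TPM (-1.05), under quantile normalization (-0.93) and with the replicate block (-1.05, limma adjusted p = 0.0756). In N99 the tissue difference passed at a mean of 5 TPM (A10 -0.87, C05 -0.83, A09 -0.85), after rescaling (A10 -1.002, C05 -0.96, A09 -0.97), under quantile normalization for A10 (-1.03), and with the replicate block for C05 (-0.83) and A09 (-0.85). Csa17 passed at 5 TPM (0.41), under quantile normalization (0.63) and after rescaling (0.45). Between lines in cotyledons, A09 passed under quantile normalization (1.08), after rescaling (1.12) and with the 6 cotyledon libraries alone (0.97), and C05 after rescaling (0.78). In leaves, A09 lost its call with all genes above 0 TPM (1.17) and C05 passed after rescaling (0.79). With a pseudocount of 0.1 TPM no call changed, but the A09 differences were -1.59 (DH12075 tissues) and 0.62 (interaction). Between lines they were 1.75 in leaves and 1.13 in cotyledons. The interaction of C05 turned to -0.0629 under quantile normalization. The cause was not tested for any of these. At a mean of 5 TPM fewer genes were tested. There the calls numbered 11926 in DH12075 (20752 at 1 TPM), 7102 in N99 (12129), 8873 in DH55 (15640), 10363 between lines in cotyledons (20475), 9465 in leaves (18961) and 2256 for the interaction (4549). Correlations of same-numbered libraries ran between -0.375 and 0.193, and those of differently numbered libraries between -0.356 and 0.462. No pairing by replicate number was thus seen, but these correlations do not decide whether the samples were paired. With the block pennycress had 3300 calls (5283 without).

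With each library left out, 120 of 162 limma results for single copies kept their direction and side of the threshold, while 14 lost a call, 18 gained one and 10 changed sign, and 54 of 60 counts of calls stayed within 1.5 times. Differences between copies and of sums, not tested here, kept their sign. The tissue difference in DH12075 ran between -1.58 and -1.03 for A10, -1.20 and -0.82 for C05 and -1.41 and -0.81 for A09. A10 and A09 lost the call without leaf replicates 1 or 2 or cotyledon replicates 1 or 2, and C05 without leaf replicate 1 or cotyledon replicates 1 or 2. In N99 it ran between -1.26 and -0.56 for A10, -1.23 and -0.53 for C05 and -1.31 and -0.53 for A09. In DH55 it ran between 0.0212 and 0.63 for Csa03, -0.12 and 0.45 for Csa14, which was also -0.07 without cotyledon replicate 2, and 0.31 and 0.55 for Csa17. N99 minus DH12075 ran in cotyledons between 1.06 and 1.77 for A10, 0.34 and 1.03 for C05 and 0.66 and 1.44 for A09, and in leaves between 1.54 and 2.08, 0.60 and 1.01, and 0.93 and 1.54. The leaf call of A09 was lost without leaf replicates 1 or 2 of DH12075 or leaf replicate 1 of N99. The interaction ran between -0.0164 and 0.71 for A10, -0.27 and 0.43 for C05 and -0.26 and 0.56 for A09. Calls over all genes numbered 15618 to 22839 in DH12075, 9074 to 11580 in N99, 10237 to 12977 in DH55, 3132 to 5018 in pennycress, 17457 to 20891 between lines in cotyledons, 15704 to 21282 in leaves and 2653 to 5854 for the interaction. The share of calls that were higher moved by over 10 points in N99 tissues after rescaling (46.3%) and without cotyledon replicate 2 (43.7%, against 58.4%), in DH55 under quantile normalization (50.7%, against 21.3%), between lines in cotyledons after rescaling (50.4%) and without that library (50.8%, against 40.4%), and for the interaction under quantile normalization (54.4%), after rescaling (58.8%) and without that library (58.0%, against 72.3%).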
